A study of Alligator mississippiensis with 4 samples.

Results

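The dermis of alligator overlapping scales on the back was compared between the bud stage (Es22) and the placode stage (Es19). These are 2 of the 4 libraries of the series, the other 2 being ventral dermis at the same stages. Both dorsal libraries came from untreated American alligator embryos (Alligator mississippiensis) raised from fertilized eggs, and the labels give 1 library for each stage. The labels name the tissue dorsal skin and the libraries scale dermis, and the study's methods say that epidermis and dermis were parted in CMF solution and that RNA was taken from the dermis. Sex, strain and the number of embryos in a library are not given in the sources used here, and the methods speak of replicate samples for each region and stage, which the labels do not show. The values are CPM, a count scaled by library size and corrected by the authors with TMM factors for differences in RNA composition. Of 10466 rows, 10105 averaged 1 CPM or more in the dorsal pair of libraries and are described here as log2((Es22 + 1)/(Es19 + 1)). With 1 library a side no test of the stages was possible, and all 95% intervals below cover counting error only.

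A scale starts as a placode, a thickening of the epidermis over dermal cells that have drawn together, and then grows out as a bud with a dermal core. The dermis of this age is made by fibroblasts, which lay down a scaffold of type I collagen with small proteoglycans and microfibrils, and which exchange WNT, BMP, FGF and hedgehog signals with the epidermis above. Vessels, blood, nerves and pigment cells run through the same tissue, so a piece of dermis holds the RNA of all of them. In such bulk samples fewer cells of a type and less RNA per cell cannot be told apart.

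The table held 13220855 reads for Es22 and 11701506 for Es19 dorsal dermis, and 1 read was worth 0.0961 CPM at Es22 and 0.0774 CPM at Es19. The tissue label was checked against 20 genes of dermal fibroblasts, of which 16 were present and 14 of these averaged 10 CPM or more. There was no row analysed here for PDGFRB, TWIST2, DPP4 or COL3A1. A mean of 10 CPM was also reached by 9 of 10 melanocyte and 12 of 17 epidermal markers. Of 13 macrophage and leucocyte markers 2 reached it. The check therefore shows that fibroblast genes were expressed, and does not tell dermis from other tissue. Both chains of type I collagen, COL1A1 and COL1A2, took 33.4% of all reads at Es22 and 20.1% at Es19. The TMM factors were 0.787 at Es22 and 1.104 at Es19, so the choice of scaling set the balance of rises and falls. With these factors the median difference over all rows was -0.01, and with plain totals of reads it was -0.45. Differences are therefore to be read relative to the median of all rows.

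On the scale of CPM + 1, at least 2-fold higher at Es22 were 831 rows (8.22% of 10105), and at least 2-fold lower were 242 rows (2.39%). Rises were thus 3.43 times as many as falls with the deposited scaling and made up 77.4% of both together, but with plain totals 456 rows were higher and 1118 lower (29.0% higher), and with totals that left out COL1A1 and COL1A2, 688 were higher and 548 lower (55.7% higher). The remaining 9032 rows (89.4%) were less than 2-fold apart, and the middle 50% of all differences lay between -0.30 and 0.37. Counts of genes called in the lists below are to be read beside the shares of 8.22% higher and 2.39% lower. At least 4-fold higher were 214 rows and 22 were lower, and at least 16-fold higher were 21 rows and 0 lower. By a stricter count added after the data were seen, with the whole counting interval of the ratio at 2-fold or more, 607 rows (6.01%) were higher and 133 (1.32%) lower. The rows of highest level leaned upwards relative to the median of all rows. Among rows that averaged 1000 CPM or more, 16 (15.8%) were higher, 1 (0.990%) was lower and the median difference was 0.47. Plain totals shift every log2 ratio by -0.49, about the size of this median, and lower the median of all rows too. Of 3532 rows below 10 CPM, 12.4% were higher and 3.28% lower. At the lower limit, 110 rows with means of 1 to 1.1 CPM were just inside, with a median difference of -0.09, and 109 rows of 0.9 to 1 CPM were just outside, with a median of 0.02.

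**Figure D1:**
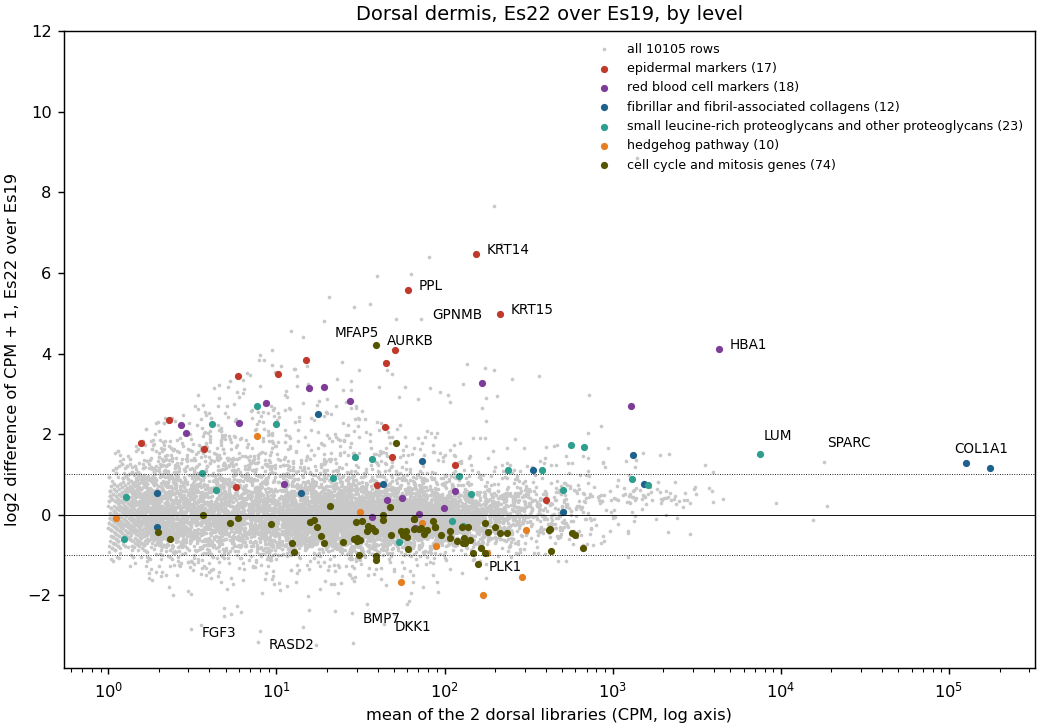
Each point is 1 row of dorsal dermis, with the mean of the 2 libraries in CPM on a log axis (horizontal) and the log2 difference of CPM + 1, Es22 over Es19 (vertical); coloured points are genes of 6 lists and dotted lines mark 2-fold. Many epidermal and red blood cell genes lie far above the cloud, the most abundant collagens and proteoglycans lie above 0, and most cell cycle genes lie just below 0.

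Of rows with a gene symbol, keratins and other genes known from epithelia were among the largest rises. KRT14, a keratin of the basal epidermis, had 306 CPM at Es22 and 2.48 CPM at Es19 and was 124-fold higher (95% interval 87.4 to 181). KRT15, another basal keratin, had 416 CPM at Es22 and 12.2 CPM at Es19, and KRT4 and KRT8 had 162 against 0.929 CPM and 96.5 against 4.72 CPM. Periplakin (PPL), which links desmosomes to keratin filaments, had 119.9 CPM at Es22 and 1.55 CPM at Es19 and was 77.5-fold higher (95% interval 49.9 to 127). TRIM29, SERPINB5 and the epithelial splicing factor ESRP2 were also among the 15 largest rises of rows with a gene symbol, with 16.7 against 0.232 CPM for SERPINB5, the last from 3 reads. ENDOU and UOX belonged to the 15 as well, but had only 2 reads and 1 read at Es19, so that the ratio of UOX, 206, has an interval from 36.5 to 8187.

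Other genes among these 15 were of different kinds. MFAP5, a glycoprotein of elastic microfibrils, had 100.7 CPM at Es22 and 2.48 CPM at Es19 and was 40.7-fold higher (95% interval 28.6 to 59.7). GPNMB, a glycoprotein of melanosomes and macrophages, had 142 CPM at Es22 and 3.95 CPM at Es19. HBA1, an alpha-type haemoglobin chain, had 8092 CPM at Es22 and 465 CPM at Es19 and was 17.4-fold higher (95% interval 16.96 to 17.9). The mitotic kinase AURKB had 75.2 CPM at Es22 and 3.10 CPM at Es19, unlike most genes of the cell cycle described below.

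The largest falls of rows with a gene symbol were of mixed kinds. A collagen VII-like gene (COL7A1L) had 2.498 CPM at Es22 and 32.0 CPM at Es19, RASD2 had 0.769 against 14.8 CPM and CHST8, a sulfotransferase, had 1.15 against 14.8 CPM. The WNT inhibitor DKK1 had 10.8 CPM at Es22 and 76.0 CPM at Es19 and was 7.06-fold lower (95% interval 5.80 to 8.67). BMP7, a BMP ligand, had 8.17 CPM at Es22 and 48.3 CPM at Es19 and was 5.91-fold lower (95% interval 4.71 to 7.51). FGF3, an FGF ligand, had no read at Es22, where up to 0.288 CPM could have gone unseen, and 80 reads or 6.19 CPM at Es19, a fall of 21.5-fold against the 3 reads that a count of 0 allows, and the counting interval of the ratio starts at 17.1-fold. TGFA, a ligand of the EGF receptor, had 1.35 against 10.4 CPM, and the homeobox gene IRX1 had 22.3 against 101.3 CPM. The 15 genes thus hold ligands and an inhibitor of signalling beside enzymes and genes of other kinds.

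HMGA2, a chromatin protein of growing embryonic cells, had 6.53 CPM at Es22 and 38.2 CPM at Es19 and was 5.85-fold lower (95% interval 4.53 to 7.66). ISLR2, SLC18A3, the vesicular acetylcholine transporter, PCLO, a protein of presynaptic endings, and the orphan receptor GPR37 had 15.8 against 106 CPM, 14.7 against 85.7 CPM, 0.961 against 9.83 CPM and 11.7 against 57.7 CPM. SLC18A3 and PCLO are best known from nerve cells. The PCLO values are of a row that shares its symbol, and with such rows summed the log2 difference was -2.18 in place of -2.47. The arginase ARG2 had 4.42 against 26.9 CPM. MOGAT2, an enzyme that rebuilds fats, had 2 reads at Es22, so its 90 reads at Es19 give a ratio, Es19 over Es22, of 36.3 with an interval from 9.75 to 304.

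In CPM the 2 type I collagen chains outweighed every other gene. COL1A1 gained 135651 CPM and COL1A2 106336 CPM, and SPARC, a collagen-binding glycoprotein of the matrix, gained 15385 CPM. HBA1 and lumican (LUM) followed. RPS20, COL6A2, EEF1A1, SERPINF2 and EEF2 made up the rest of the 10 largest gains among gene symbols, with rows of the same symbol summed. SERPINF2, an inhibitor of plasmin, had 3194 against 1128 CPM, but the elongation factors EEF1A1 and EEF2 were only 1.16-fold and 1.23-fold higher, gains that turn into losses with plain totals. The largest losses were much smaller. The actin ACTG1 had 14801 against 16123 CPM, a difference of -1321.9 CPM, the secreted WNT modulator SFRP2 differed by -847 CPM and the chaperone HSP90AB1 by -638 CPM. APCDD1, ATP5B, FSCN1, NASP, TOP2A and DBN1 were also among the 10 largest losses of such symbols. Of these, APCDD1 and the actin-binding drebrin DBN1 (293 against 649 CPM) were at least 2-fold lower, as was SFRP2.

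The dermal matrix rose at Es22 relative to the median of all rows. Of 12 fibrillar and fibril-associated collagen genes, 6 were higher and 0 lower, with a median difference of 0.94 beside -0.01 for all rows. COL1A1 had 244337 CPM at Es22 and 108686 CPM at Es19 and was 2.25-fold higher (95% interval 2.24 to 2.25). COL1A2 had 179383 CPM at Es22 and 73047 CPM at Es19 and was 2.46-fold higher (95% interval 2.45 to 2.46), so the 2 chains of type I collagen kept close to each other. With plain totals the log2 differences of COL1A1 and COL1A2 were 0.68 and 0.81, under 2-fold. The list median was then 0.46, beside -0.45 for all rows. COL21A1, COL12A1 and COL20A1, collagens that sit on fibrils, had 1935 against 692 CPM, 461 against 212 CPM and 106 against 41.3 CPM, and were also higher. COL5A1, whose product starts type I fibrils, had 1929 against 1133 CPM and stayed under 2-fold. COL2A1, the fibrillar collagen of cartilage, had 520.0 against 497 CPM, and COL11A2 had 30.7 against 4.57 CPM.

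Among 13 other collagens 8 were higher and 0 lower, with a median of 1.29 that was 0.81 with plain totals. The collagen VII-like COL7A1L, given above as the largest fall of rows with a gene symbol, was not on this list. COL6A2 and COL6A1, chains of the beaded-filament collagen VI, had 5347 against 2562 CPM and 56.9 against 22.7 CPM, while COL6A3 had 63.7 against 49.1 CPM. COL23A1, a transmembrane collagen, had 188 CPM at Es22 and 26.3 CPM at Es19 and was 7.16-fold higher (95% interval 6.37 to 8.05). The basement membrane collagens COL4A1, COL4A2 and COL15A1 had 359.5 against 114 CPM, 257 against 67.5 CPM and 73.7 against 20.6 CPM, and these are also made by vessels, whose markers rose in the same library and whose part here was not tested. COL17A1, a collagen of epidermal hemidesmosomes, had 4.52 CPM at Es22 and 1 read at Es19.

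Genes that process collagen were higher to a lesser degree, with 3 of 19 at least 2-fold higher, 0 lower and 18 above 0. Their median of 0.71 was 0.22 with plain totals. PCOLCE, which speeds the removal of procollagen ends, had 1146 CPM at Es22 and 282 CPM at Es19 and was 4.06-fold higher (95% interval 3.91 to 4.21). The lysyl hydroxylase PLOD1 had 1715 against 684 CPM and the procollagen proteinase BMP1 968 against 459 CPM, both higher. The collagen chaperones FKBP10 and FKBP9, with 1896 against 1162 CPM and 1682 against 1057 CPM, and the cross-linking enzyme lysyl oxidase (LOX), with 357 against 198 CPM, stayed under 2-fold.

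Proteoglycans followed the collagens. Of 23 genes 11 were higher and 0 lower, with a median of 0.95 that was 0.47 with plain totals. Lumican (LUM), a small proteoglycan that spaces collagen fibrils, had 11123 CPM at Es22 and 3917 CPM at Es19 and was 2.84-fold higher (95% interval 2.81 to 2.87). Osteoglycin (OGN) and ECM2, of the same leucine-rich repeat family, had 1038 against 321 CPM and 866 against 258 CPM, ratios of 3.23 and 3.35. Biglycan (BGN), dermatopontin (DPT), which is counted here as a proteoglycan-binding protein, and syndecan SDC2 were higher as well, with 327 against 152 CPM, 43.6 against 15.4 CPM and 519 against 239 CPM. Decorin (DCN) had only 5.19 against 2.01 CPM. The hyaluronan-binding versican (VCAN) and PRELP had 2024 against 1215 CPM and 1696 against 913 CPM and stayed under 2-fold, as did the hyaluronan synthase HAS3 with 40.6 against 65.9 CPM.

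The microfibril genes were uneven. Of 20 genes 3 were higher and 0 lower, and their median of 0.44 turned to -0.05 with plain totals. Fibrillin 1 (FBN1), the main subunit of microfibrils, had 2242 CPM at Es22 and 773 CPM at Es19 and was 2.90-fold higher (95% interval 2.83 to 2.97), while fibrillin 2 (FBN2), known in mammals as the more embryonic form, had 2611 against 2153 CPM. The microfibril genes MFAP2 and MFAP4 had 223 against 212 CPM and 577 against 407 CPM, beside the 40.7-fold rise of MFAP5. Among 12 matricellular genes, whose products act on cells from within the matrix, 3 were higher (THBS2, IGFBP7 and SPARC) and 1 was lower (THBS3). Their median of 0.83 was 0.38 with plain totals. The thrombospondins thus went both ways, with 76.2 against 15.9 CPM for THBS2 and 102 against 225 CPM for THBS3, and SPARC had 25694 against 10309.7 CPM.

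Of 19 basement membrane genes 6 were higher and 1 lower, with a median of 0.60 that was 0.27 with plain totals. This list shares members with the list of other collagens, so their counts are not separate. The laminin chain LAMA4, found in vessel walls, had 985 against 355 CPM and was higher, while LAMA1, an early laminin chain, had 202 against 363 CPM and LAMC3 2.02 against 7.12 CPM, and only the last was at least 2-fold lower. Of 33 proteases and inhibitors 8 were higher and 0 lower, with a median of 0.49 that was 0.02 with plain totals. The serine protease HTRA3 led with 311 CPM at Es22 and 40.6 CPM at Es19, and was 7.64-fold higher (95% interval 6.97 to 8.40). The proteases PRSS23 and PRSS35 and the protease inhibitor SERPINE2 had 644 against 271 CPM, 204 against 76.2 CPM and 143 against 52.2 CPM.

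**Figure D2:**
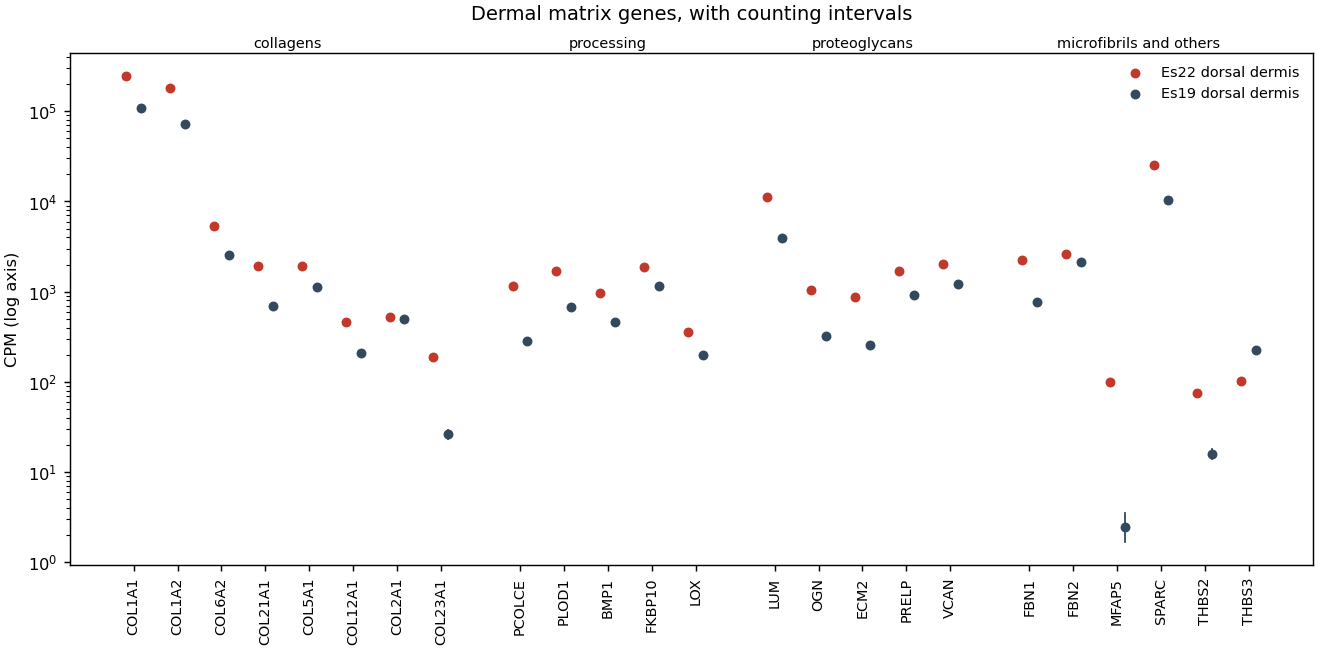
Levels of 24 matrix genes in Es22 (red, left) and Es19 dorsal dermis (dark, right), in CPM on a log axis, with lines for the 95% counting interval of each value, mostly narrower than the point. Es22 is above Es19 for every gene shown but THBS3, and the gap is widest for MFAP5, at 100.7 against 2.48 CPM.

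Genes of the hedgehog pathway lay below the median of all rows. Hedgehog ligands act through the receptor PTCH1 and the GLI transcription factors, and PTCH1 and GLI1 are themselves induced by the signal. No ligand of the family was among the 10 genes of the pathway with a row. Their median was -0.57, with 3 genes lower and 1 higher. GLI1 had 25.9 CPM at Es22 and 84.2 CPM at Es19 and was 3.25-fold lower (95% interval 2.84 to 3.72). GLI2 had 147 CPM at Es22 and 431 CPM at Es19 and was 2.93-fold lower (95% interval 2.77 to 3.11), so that both genes stood far lower in the Es22 library. PTCH1 had 122 CPM at Es22 and 238 CPM at Es19, just under 2-fold lower on the scale used, and the hedgehog-binding HHIP had 67.7 against 78.5 CPM. The co-receptors CDON and GAS1 had 264 against 344 CPM and 65.5 against 112 CPM. SCUBE2, which helps release the ligand, was the 1 gene called higher, with 12.8 CPM at Es22 and 2.55 CPM at Es19 and a ratio of 5.01. Of the 10 genes 2 lay above 0 and 8 below.

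WNT genes moved both ways. Of 46 genes 7 were higher and 4 lower, with a median of 0.15 that turned to -0.31 with plain totals and to a value below 0 when COL1A1 and COL1A2 were left out of the totals. The transcription factor SP5, a direct WNT target, had 37.4 CPM at Es22 and 144 CPM at Es19 and was 3.86-fold lower (95% interval 3.46 to 4.32). APCDD1, a WNT inhibitor and target, had 328 CPM at Es22 and 733 CPM at Es19 and was 2.24-fold lower (95% interval 2.15 to 2.33). SFRP2 had 802 CPM at Es22 and 1649 CPM at Es19 and was 2.06-fold lower (95% interval 2.005 to 2.11), close to the rule, and DKK1 is given above. Other secreted inhibitors moved the opposite way.

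SFRP1 had 180.4 CPM at Es22 and 70.5 CPM at Es19 and was 2.56-fold higher (95% interval 2.36 to 2.77), and DKK3 had 174 against 69.7 CPM. Of the ligands, WNT5B had 29.5 CPM at Es22 and 8.05 CPM at Es19 and was 3.66-fold higher (95% interval 2.92 to 4.62), and WNT7A, a ligand of epidermis, had 3.07 CPM at Es22 and 3 reads at Es19. The receptor FZD1 and the R-spondin ligand and receptor RSPO1 and LGR5 had 51.5 against 22.9 CPM, 16.8 against 7.28 CPM and 26.5 against 12.5 CPM, all higher.

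BMP genes went both ways, the ligands included. Of 41 genes 9 were higher and 4 lower, and their median of 0.28 turned to -0.20 with plain totals. BMP2, a ligand, had 46.0 CPM at Es22 and 109 CPM at Es19 and was 2.36-fold lower (95% interval 2.13 to 2.62), and BMP3, known in mammals to oppose other BMPs, had 13.9 against 40.2 CPM. RGMA, a BMP co-receptor, was also lower, with 29.5 against 63.8 CPM. Follistatin (FST), which binds activins and BMPs, had 128 CPM at Es22 and 29.4 CPM at Es19 and was 4.37-fold higher (95% interval 3.89 to 4.91). The ligand BMP8A had 6.44 CPM at Es22 and 1.47 CPM at Es19 and was 4.38-fold higher (95% interval 2.60 to 7.72). GDF10, a divergent ligand of the family, had 175 CPM at Es22 and 52.5 CPM at Es19, and the receptor TGFBR2 had 140.1 CPM at Es22 and 35.9 CPM at Es19. The homeobox genes MSX2 and MSX1, which respond to BMPs, had 17.7 against 2.63 CPM and 10.5 against 4.49 CPM. Thus the ligands BMP2, BMP3 and BMP7 stood lower at Es22 and the ligands BMP8A and GDF10 higher. Noggin (NOG) had 0.769 against 2.09 CPM and the response gene ID2 47.0 against 83.7 CPM, both under 2-fold with 1 CPM added, though NOG without it was 2.72-fold lower on few reads.

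Of 21 FGF genes 4 were higher and 2 lower, with a median of -0.08. Both falls were ligands, FGF3 and FGF18, and FGF18 had 10.2 CPM at Es22 and 26.0 CPM at Es19 and was 2.55-fold lower (95% interval 2.05 to 3.21). The ligand FGF7 had 33.2 CPM at Es22 and 14.1 CPM at Es19 and was 2.36-fold higher (95% interval 1.97 to 2.84), and FGF10, which signals to epithelia like FGF7, had 20.7 against 19.5 CPM. The feedback genes did not move together, with 22.7 against 7.66 CPM for DUSP5 and 16.3 against 31.3 CPM for DUSP6.

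**Figure D3:**
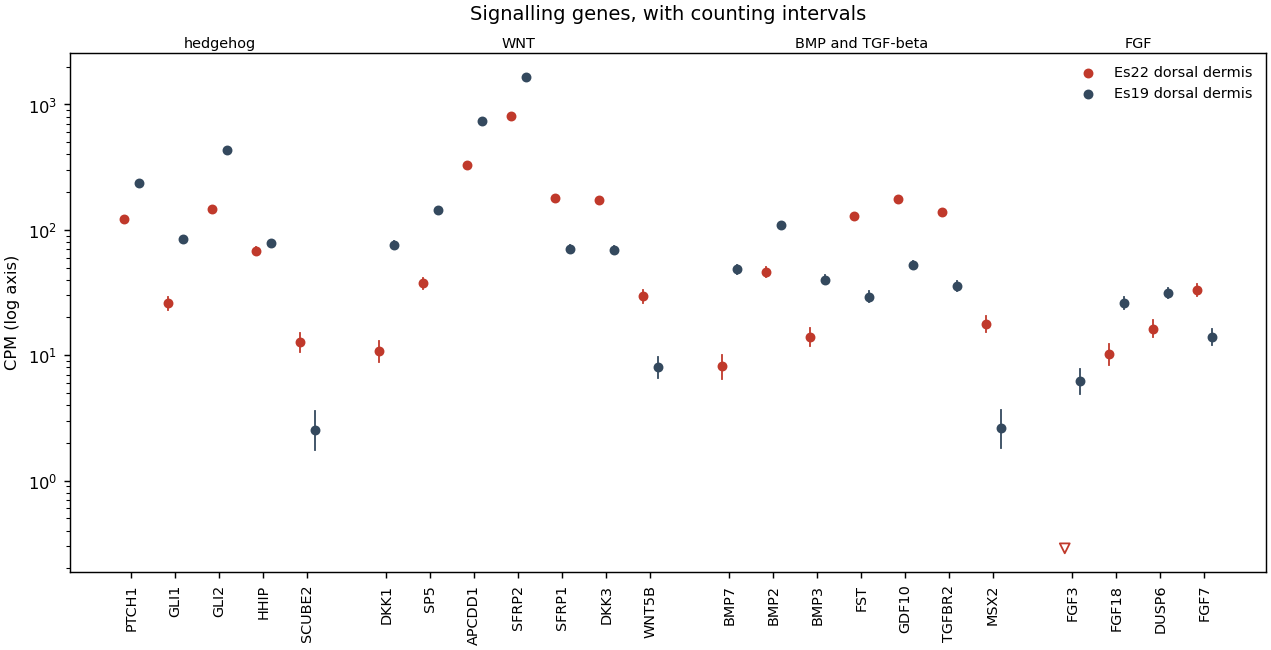
Levels of 23 signalling genes in Es22 (red, left) and Es19 dorsal dermis (dark, right), in CPM on a log axis, with lines for the 95% counting interval; the open triangle is FGF3 at Es22, with no read, drawn at the 0.288 CPM that 3 reads are worth. GLI1, GLI2, DKK1, SP5, BMP7 and BMP2 lie lower at Es22, and SFRP1, WNT5B, FST, GDF10, TGFBR2 and FGF7 lie higher.

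Calls in the smaller pathways are to be read beside 8.22% of all rows higher and 2.39% lower. None of 12 Notch genes was 2-fold apart and their median was -0.42, with 51.0 against 98.4 CPM for the target HEY2 and 137 against 166 CPM for the ligand JAG1. Of 15 retinoic acid genes 1 was higher, the transglutaminase TGM2 (18.1 against 6.89 CPM), and the median of 0.01 fell below 0 with plain totals, without the type I collagens and with the upper quartile. Of 9 genes of the EDA and TNF families 2 were higher, TNFSF10 and the NF-kappa-B inhibitor NFKBIA, with a median of -0.03.

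Of 16 genes of the insulin-like growth factor axis 6 were higher and 1 lower, with a median of 0.47 that plain totals brought just below 0. The binding proteins IGFBP2 and IGFBP7 had 46.6 against 15.3 CPM and 67.3 against 22.8 CPM, the ligand IGF1 had 3.27 against 0.387 CPM and the protease PAPPA2, which frees IGFs from binding proteins, had 7.40 against 28.9 CPM and was the one lower. The chemokine CXCL14 had 457 CPM at Es22 and 43.5 CPM at Es19 and was 10.5-fold higher (95% interval 9.63 to 11.5), and CXCL12 had 39.8 against 10.5 CPM, the 2 genes called of 5 chemokine genes, whose median was 0.82. Among 31 axon guidance genes 4 were lower (PLXNA4, SEMA6A, ROBO3 and RGMA) and 2 higher (EPHA1 and SEMA5A), with a median of -0.18. SEMA6A, a membrane semaphorin, had 67.8 against 186 CPM.

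Integrins and cadherins both went both ways. Of 37 integrin and cadherin genes 12 were higher and 4 lower, with a median of 0.15 that fell below 0 with plain totals and without the type I collagens in the total. E-cadherin (CDH1), of epithelia, and the vessel cadherin CDH5 were higher, with 84.5 against 5.34 CPM and 114 against 32.7 CPM, as were the integrins ITGA1, ITGA3, ITGB2 and ITGB6. The integrin chain ITGA4 had 32.8 CPM at Es22 and 115 CPM at Es19 and was 3.52-fold lower (95% interval 3.12 to 3.97), and R-cadherin (CDH4) and the large cadherin FAT3 had 9.03 against 37.4 CPM and 10.9 against 37.7 CPM. N-cadherin (CDH2) had 93.1 against 116 CPM.

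Among 69 transcription factors of dermis and position 14 were higher and 6 lower, with a median of 0.02 that fell below 0 with plain totals and without the type I collagens in the total. The Iroquois genes went both ways, since IRX4 and IRX2 had 12.1 against 0.619 CPM and 9.51 against 1.78 CPM, while IRX1 and IRX5 had 22.3 against 101.3 CPM and 32.6 against 82.5 CPM. MKX, a homeobox factor that drives tendon collagen in mammals, had 66.6 CPM at Es22 and 14.6 CPM at Es19 and was 4.55-fold higher (95% interval 3.87 to 5.37). SOX11, a factor of immature cells, had 20.3 CPM at Es22 and 63.5 CPM at Es19 and was 3.13-fold lower (95% interval 2.69 to 3.66). MEIS2 and ALX4 were lower with 12.5 against 31.3 CPM and 41.2 against 85.0 CPM, and TWIST1, a factor of early mesenchyme, had 194 against 371 CPM, just under 2-fold lower. TFAP2A, TFAP2C and TFAP2E, AP-2 factors that epidermis and neural crest also use, had 18.2 against 5.19 CPM, 71.4 against 26.0 CPM and 12.97 against 1.32 CPM.

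Hox genes, which record position along the body, leaned downwards. Of 18 genes 3 were lower and 0 higher, with a median of -0.62. HOXB3 had 33.5 CPM at Es22 and 96.3 CPM at Es19 and was 2.87-fold lower (95% interval 2.55 to 3.24), and HOXC11 and HOXA9 had 18.5 against 45.0 CPM and 4.80 against 14.2 CPM. HOXA7 and HOXB7 had 70.8 against 48.8 CPM and 55.1 against 42.4 CPM, values above 0 and under 2-fold.

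Genes of the cell cycle were lower as a group, though few passed 2-fold. Of 74 genes 5 lay above 0, the median was -0.42 beside -0.01 for all rows, 4 were at least 2-fold lower and 2 were higher. The mitotic kinase PLK1 had 94.1 CPM at Es22 and 221 CPM at Es19 and was 2.35-fold lower (95% interval 2.19 to 2.53). PRC1, CDT1 and ESPL1, of the spindle, of replication licensing and of sister chromatid release, had 20.3 against 41.8 CPM, 25.4 against 52.6 CPM and 24.3 against 54.1 CPM. Topoisomerase TOP2A had 480.5 against 848 CPM and MCM7 100.8 against 196 CPM, under 2-fold. The 2 rises were AURKB, given above, and the cyclin CCND3 with 79.6 against 22.7 CPM. Of 16 inhibitors of growth 3 were higher and 0 lower, with a median of 0.20 that fell below 0 with plain totals and without the type I collagens in the total. BTG2 had 85.1 CPM at Es22 and 18.7 CPM at Es19, CDKN1A had 6.44 against 1.32 CPM and GAS2 55.5 against 26.0 CPM.

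All 63 genes of cytosolic ribosomal proteins lay above 0, with a median of 0.47, but with plain totals the median was -0.02, and these genes took 9.79% of the reads at Es22 and 9.68% at Es19. Only RPS20 was at least 2-fold higher, with 4981 against 2128 CPM. None of 60 respiratory chain genes was 2-fold apart, and their median of 0.08 fell below 0 with plain totals and without the type I collagens in the total, as did that of 14 glycolysis genes, 0.15. Of the glycolysis genes 1 was higher, the glucose carrier SLC2A3 (3.36 against 1.08 CPM). Of 62 genes of folding and secretion in the endoplasmic reticulum 1 was higher, the retrieval receptor KDELR3 with 556 against 228 CPM, and the median of 0.33 turned to -0.15 with plain totals. ATF4, a stress transcription factor, had 900.0 against 521 CPM.

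Immediate-early genes, which cells switch on shortly after a stimulus, and stress genes were tallied on 1 list. Of 37 genes 15 were higher and 0 lower, with a median of 0.91 that was 0.49 with plain totals. In ventral dermis the median of this list was 1.16. FOS and JUNB, subunits of AP-1, had 90.6 against 27.1 CPM and 100.9 against 31.5 CPM, and EGR1 and EGR3 had 177 against 72.4 CPM and 15.9 against 3.10 CPM. JUN and MYC, with 124 against 119 CPM and 29.8 against 37.1 CPM, stayed under 2-fold.

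Markers of most other cell types rose in the same library, but those of cartilage and bone and of Schwann cells and nerve did not share a direction. Dermal fibroblast markers rose as well. Of the 16 with a row 8 were higher and 0 lower, with a median of 0.94 that was 0.51 with plain totals. Medians of the other cell types are to be read beside this one. Of 40 epidermal markers 17 had a row, and 14 of these were higher and 0 lower, with a median of 2.36. Their summed level was 1911 CPM at Es22 and 523 CPM at Es19, or 0.150% and 0.0578% of the reads, and none was at 0 in either library. Beside KRT14 and KRT15, the desmosome protein DSP had 19.7 against 0.851 CPM and EPCAM, an epithelial adhesion molecule, 73.6 against 15.4 CPM. JUP and CLDN7, with 449 against 349 CPM and 50.2 against 29.6 CPM, stayed under 2-fold. Epidermis was removed before RNA was taken, and the part of epidermis left on the dermis in these values was not tested.

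Blood and vessel genes were higher too. Of 18 red blood cell markers 10 were higher and 0 lower, with a median of 2.12 and a sum of 11318 CPM at Es22 and 1318 CPM at Es19. The embryonic haemoglobin chain HBZ had 2235 against 344 CPM and the red cell anion carrier SLC4A1 302 against 30.3 CPM, while CPOX, an enzyme of haem synthesis that every cell uses, had 70.7 against 69.6 CPM. Of 22 endothelial markers 14 were higher and 0 lower, with a median of 1.40 that was 0.96 with plain totals. Their sum was 1196 CPM at Es22 and 529.5 CPM at Es19. The VEGF receptors KDR and FLT1 had 77.6 against 19.7 CPM and 57.4 against 10.2 CPM, the angiopoietin receptor TEK 233 against 62.0 CPM, von Willebrand factor (VWF) 17.4 against 1.93 CPM and the lymphatic marker LYVE1 31.2 against 3.87 CPM. SOX18 and ENG, with 96.9 against 111 CPM and 104 against 98.4 CPM, were nearly level. Of 10 smooth muscle and pericyte markers 5 were higher and 0 lower, with a median of 0.92 that was 0.49 with plain totals. The pericyte gene RGS5 led with 25.1 against 1.39 CPM. The sum of the 10 markers changed less, with 665 CPM at Es22 and 567 CPM at Es19.

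Of 13 macrophage and leucocyte markers 10 were higher and 0 lower, with a median of 1.37. Their sum was 158 CPM at Es22 and 113 CPM at Es19. The levels were low, with 15.1 against 2.79 CPM for the complement gene C1QC and 3.65 against 0.464 CPM for the mannose receptor MRC1. Of 10 melanocyte markers 5 were higher and 0 lower, with a median of 0.84 that was 0.36 with plain totals. The melanin enzymes DCT and TYRP1 had 58.1 against 3.87 CPM and 55.9 against 8.51 CPM and the melanosome fibre gene PMEL 353 against 163 CPM, the lineage factor SOX10 had 39.1 against 25.8 CPM, and the pigment transporters SLC45A2 and SLC24A5 had 37.4 against 34.0 CPM and 14.5 against 14.1 CPM. The pigment genes were thus uneven.

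Of 18 skeletal muscle markers 8 were higher and 0 lower, with a median of 0.66 that was 0.26 with plain totals. Their sum was 626 CPM at Es22 and 308 CPM at Es19. Genes of fast fibres, such as MYL1 and TNNC2 with 52.4 against 7.20 CPM and 69.7 against 13.5 CPM, were higher, and the slow-fibre genes were uneven and under 2-fold, with 27.2 against 49.5 CPM for MYH7, 12.4 against 16.1 CPM for MYL2, 28.2 against 19.7 CPM for TNNI1 and 14.1 against 9.98 CPM for TNNC1. Among 11 Schwann cell and nerve markers 2 were higher, among them the receptor RET, and 2 lower, the neurofilament genes NEFM and NEFH with 16.1 against 41.9 CPM and 17.5 against 38.4 CPM, and the median of 0.19 turned to -0.19 with plain totals.

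Of 17 cartilage and bone genes 2 were higher, COL11A2 and CHAD, and 2 lower, with a median of -0.24. The osteoblast factor SP7 had 9.70 CPM at Es22 and 34.3 CPM at Es19 and was 3.53-fold lower (95% interval 2.84 to 4.43), and RUNX3 had 28.3 CPM at Es22 and 83.8 CPM at Es19. Only 3 of 15 adipocyte genes had a row, of which complement factor D (CFD) had 669.8 CPM at Es22 and 61.0 CPM at Es19 and lipoprotein lipase (LPL) 36.03 against 4.02 CPM, and their median was 2.88. Without the genes of all marker lists of other cell types, a count made after the data were seen, 760 rows were higher and 238 lower of 9967. The lists hold the remaining 138 rows, of which 71 were higher (51.4%) and 4 lower. Their part in the calls of other genes was not tested.

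**Figure D4:**
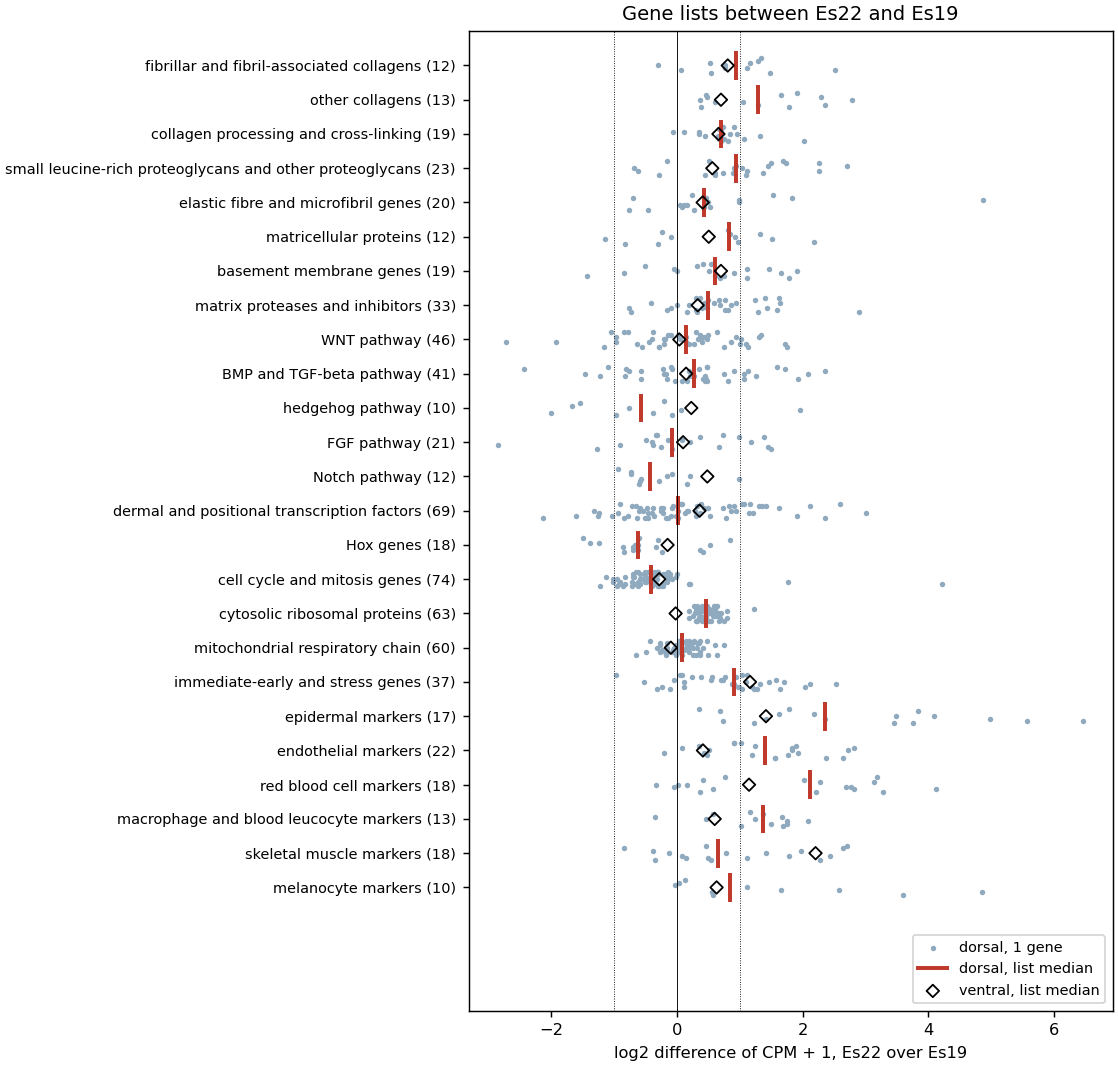
Log2 differences of CPM + 1, Es22 over Es19, for the genes of 25 lists, with the number of genes in brackets; grey-blue points are single genes in dorsal dermis, red bars the dorsal list medians and open diamonds the ventral list medians. The matrix and cell type marker lists drawn have dorsal medians above 0, and the hedgehog, FGF, Notch, Hox and cell cycle lists below 0. The cartilage and bone list, with a dorsal median of -0.24, is not drawn. The elastic fibre median turns below 0 with plain totals, and dotted lines mark 2-fold.

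The study followed lists of feather-associated and scale-associated genes from chicken skin, so their direction here was not chosen on these libraries. Of 86 feather-associated genes that the study lists for alligator, 52 had a row and 51 were kept. Of these 51, 8 were higher (15.7%) and 7 lower (13.7%), with a median of -0.19. Over all rows the shares were 8.22% and 2.39%. The leucine-rich repeat gene LRRN1 and the cytoskeletal linker TLN2 were among the lower, with 25.6 against 100.3 CPM and 60.3 against 155 CPM, and GGT5, which cleaves leukotrienes and glutathione, was among the higher with 128 against 43.0 CPM. Of 135 scale-associated genes so listed, 76 had a row and 75 were kept. Of these 75, 16 were higher (21.3%) and 3 lower (4%), and their median of 0.36 turned to -0.09 with plain totals. Listed genes without a row are not covered by these shares. ARSI, a sulfatase, had 51.8 against 7.43 CPM. Of the higher genes HTRA3, IGFBP2 and CDH1 are given above, and TMEM132E and ASTN1 were lower with 9.22 against 32.9 CPM and 7.49 against 19.1 CPM.

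The ventral libraries of the same stages, which share no library with the dorsal ones, were set beside these values for the same 10105 rows. In ventral dermis 578 rows (5.72%) were at least 2-fold higher and 166 (1.64%) lower. Of the dorsal rises 334 were ventral rises as well, 40.2% of the dorsal and 57.8% of the ventral ones, 9 were ventral falls, and 754 of the 831 (90.7%) had the same sign in ventral dermis, beside 67.7% of all rows. The median of these dorsal rises was 1.48, and the same rows had a ventral median of 0.83. Of the dorsal falls 51 were ventral falls, 21.1% of the dorsal and 30.7% of the ventral ones, 3 were ventral rises, and the median of these falls was -1.27 in dorsal against -0.49 in ventral dermis. Since the rows were picked by their dorsal values, the smaller ventral medians are a description only. Over all rows the 2 differences had a Pearson r of 0.59 and a Spearman rho of 0.51, across genes that share libraries and are not replicates.

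Type I collagen rose in both regions, and COL1A1 had 208400.0 against 49609 CPM in ventral dermis. The median of the epidermal list was 2.36 in dorsal against 1.42 in ventral dermis, that of the endothelial list 1.40 and 0.42, and the skeletal muscle list 0.66 and 2.21. The hedgehog list had -0.57 in dorsal and 0.23 in ventral dermis. There PTCH1 had 174 against 82.3 CPM and GLI2 323 against 287 CPM, so that the ventral values at Es22 were level or higher where the dorsal ones were lower. The Notch list had -0.42 and 0.49, with 72.9 against 15.5 CPM for HEY2 in ventral dermis. Whether any gene or list differed between the regions in its change was not tested, since each region has 1 library a stage.

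**Figure D5:**
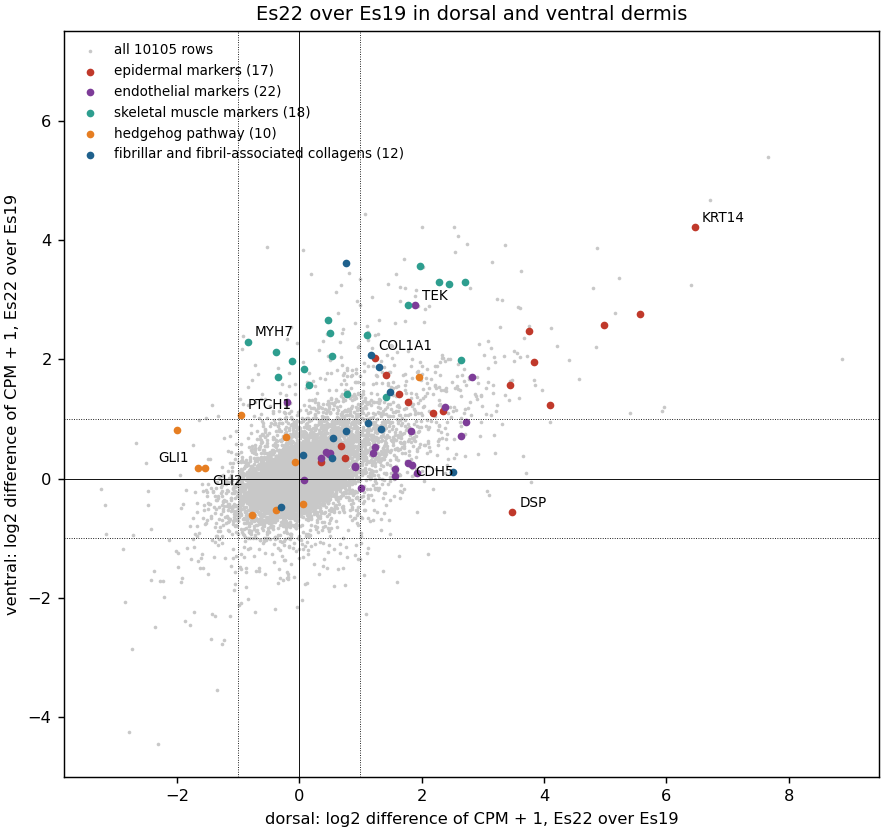
Log2 differences of CPM + 1, Es22 over Es19, of the 10105 rows in dorsal (horizontal) and ventral dermis (vertical), with 5 lists in colour and dotted lines at 2-fold. Epidermal markers lie mostly up and to the right, with DSP below 0 on the ventral axis, skeletal muscle markers lie high on the ventral axis with a dorsal median of 0.66, and GLI1, GLI2 and PTCH1 lie left of 0 with ventral values above 0.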

How the data were processed

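RNA-seq of alligator scale dermis was analysed for 1 dorsal library at Es22 and 1 at Es19, with the ventral libraries of both stages set beside them. The methods name a TruSeq kit and STAR as aligner, whereas HTSeq, edgeR, Partek 3 and TopHat2 2.1.0 stand in the submitters' processing notes. The build and version of the annotation are not given in the sources used here. The deposited values are CPM scaled by the authors with TMM factors, handled as a signal because the columns sum to other totals than that unit implies. Rows are transcript records, of which 287 share their symbol with another, and CPM is not corrected for length, so levels should be compared within a gene.

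Each value was turned back into reads with the step of its column, and 99.9% of values at Es22 and 99.8% at Es19 then lay within 0.05 of a whole number. A count of 0 allows 3 reads, 0.288 CPM at Es22 and 0.232 CPM at Es19. Rows that averaged 1 CPM or more over both dorsal libraries were kept, 1 CPM was added before taking log2, which understates the change of low genes, and a gene was called higher or lower at 2-fold. Ratios are of CPM without the added 1, with exact binomial 95% intervals on the reads, checked on simulated reads. Reads without molecular identifiers are not independent molecules, so intervals and floors cover counting error only. In the 41 gene lists, rows of the same symbol were added together, and a gene can stand on several lists. Lists are described by counts and medians, with no test.

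The members, lists and rules were chosen with earlier results of these data known. Genes named are the 15 largest rises and falls among rows with a gene symbol. The 10 largest gains and losses in CPM are named too, with rows of the same symbol summed. Named as well are list members that were 2-fold apart, among the highest, or defining ligands, receptors and markers. Further list members, mainly those under 2-fold such as MYC, JUN, NOG and HHIP, were chosen after their values were seen. Alternatives were other pseudocounts, filters, scalings and folds, summed rows, and 2 counts added after the data were seen. Scripts ran on Python 3.11.15 with scipy 1.17.1, numpy 2.4.6, matplotlib 3.10.9 and pandas 2.3.3. Some genes are not reported here.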

Additional observations from a re-analysis of the deposited data

Results flagged for a closer look

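In 6 genes with a symbol on the lists the stages moved at least 2-fold in opposite directions in the 2 regions. These genes were picked by that pattern from the list members and the genes named by size or gain. Over all 10105 rows, 9 dorsal rises were ventral falls and 3 dorsal falls were ventral rises. With 1 library for each region and stage, the difference between the regions was not tested. The 2-fold rule was applied with the deposited scaling. Plain totals shift every dorsal log2 ratio by -0.49, which takes the dorsal rises of GAS2, RSPO1 and STC1 under 2-fold. The ventral TMM factors were 0.904 at Es22 and 1.273 at Es19, and plain totals likewise take the ventral rises of RUNX3 and LAMC3 under 2-fold. The BMP ligand BMP8A had 6.44 against 1.47 CPM in dorsal dermis, Es22 against Es19, a log2 difference of 1.59, and 4.23 against 16.5 CPM in ventral dermis, a difference of -1.74. The growth arrest gene GAS2 had 55.5 against 26.0 CPM in dorsal dermis (1.07) and 34.6 against 108 CPM in ventral dermis (-1.62). The R-spondin RSPO1, which strengthens WNT signals, had 16.8 against 7.28 CPM in dorsal dermis (1.11) and 12.5 against 31.0 CPM in ventral dermis (-1.25). The hormone gene STC1 had 5.57 against 2.09 CPM in dorsal dermis (1.09) and 2.89 against 17.7 CPM in ventral dermis (-2.27).

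The other 2 genes were lower at Es22 in dorsal and higher in ventral dermis. The transcription factor RUNX3 had 28.3 against 83.8 CPM in dorsal dermis (-1.53) and 49.9 against 24.1 CPM in ventral dermis (1.02). The laminin chain LAMC3 had 2.02 against 7.12 CPM in dorsal dermis (-1.43) and 7.74 against 2.71 CPM in ventral dermis (1.23).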

How the results depend on the processing

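Beside the 831 rows higher and 242 lower, a pseudocount of 5 gave 432 and 105, a pseudocount of 0.1 gave 1090 and 404, and a mean of at least 5 CPM gave 553 and 167. Plain totals of reads gave 456 higher and 1118 lower, and totals without COL1A1 and COL1A2 gave 688 and 548, since both scalings shift every ratio alike, by -0.49 in log2 for plain totals. A 4-fold rule gave 214 and 22. The whole counting interval at 2-fold or more, chosen after seeing the data, gave 607 and 133, and leaving out marker genes of other cell types, chosen likewise, gave 760 and 238. No filter, the upper quartile, the median ratio and summed rows stayed within 1.5 times both counts. Of 41 lists 14 changed the sign of their median under a scaling, each of them with plain totals. No called gene among the 49 named by size or by gain changed direction, but this outcome was fixed in advance. A called gene is at least 2-fold apart, and the largest shift by a scaling, -0.49 in log2, is smaller than that. The count therefore says nothing of how robust these genes are.

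No paired analysis was possible because each stage has 1 dorsal library and the labels carry no replicate numbers. Leaving out a replicate was not possible for the same reason, and a count test on the recovered reads has no residual degree of freedom here. Depth limits the low genes most, as 1 read is worth 0.0961 CPM at Es22 and 0.0774 CPM at Es19.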

Other observations

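Of the 21 rows at least 16-fold higher at Es22, 9 carry only a gene number or a LOC symbol and are left out of the gene lists. The row gene16783, chosen after its values were seen, has the largest difference of all. It had 2774 CPM at Es22 and 4.95 CPM at Es19 in dorsal dermis, or 28869 and 64 reads, and 3.30 CPM at Es22 and 0.0679 CPM at Es19 in ventral dermis. The files give it no name, so nothing is said of its product. Rows with a gene symbol were higher in 8.43% and lower in 2.45% of cases, and rows without one in 7.41% and 2.17%.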
